A study of Mus musculus with 8 samples.

Results

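The genes described here are 37 genes of glucose breakdown and oxygen sensing, of 32285 genes in the deposited count table. They were chosen by name: 2 glucose carriers (Slc2a1, Slc2a3), 15 enzymes from hexokinase to pyruvate kinase, lactate dehydrogenases and lactate carriers, 2 regulators of flux, the subunits of the hypoxia-inducible factors (HIF), the enzymes and the ligase adaptor that restrain them, and HIF target genes. All 37 genes were in the table, and 36 passed the filter on low values described here, while Adm, which encodes the vasodilator peptide adrenomedullin, did not, with 31 unique molecular identifiers (UMIs) in the gated cells and 46 UMIs in all cells. The lungs came from wild-type C57BL6/J mouse pups 5 days old. All pups had been exposed to lipopolysaccharide before birth, on day 14 of gestation, and from birth they breathed either 21% oxygen (air, 4 libraries) or 65% oxygen (hyperoxia, a model of bronchopulmonary dysplasia, 4 libraries). The lungs had been cryopreserved and thawed, and endothelium, epithelium and immune cells were isolated by flow sorting before single-cell RNA sequencing.

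The 11806 cells of the table carry barcode names that match none of the 8 libraries, so all cells were pooled and treated as 1 sample. Hyperoxia could not be compared with air, and no p-value is given for any gene. The 95% intervals printed with levels and ratios cover counting error only, not differences between pups. The barcodes are sorted within 8 runs of columns, which hold 282 to 3355 cells each. A run has no label, and values per run, given for runs with at least 20 cells of a group, are a description of spread. Of the barcodes, 12 occur in several runs, in 31 cells.

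Glycolysis splits glucose into pyruvate and yields ATP without oxygen. Lactate dehydrogenase then converts pyruvate to lactate, which leaves the cell through monocarboxylate carriers. HIF is a pair of an alpha subunit (from Hif1a or Epas1) and the stable partner from Arnt. In the presence of oxygen, prolyl hydroxylases of the EGLN family mark the alpha subunit for the VHL ubiquitin ligase, which sends it to degradation. When oxygen is short the alpha subunit persists and HIF raises transcription of glucose carriers, glycolytic enzymes, Slc16a3 and a feedback set that includes Egln3. HIF is controlled mainly through protein stability, which RNA counts do not measure.

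Cells were grouped by UMI counts of marker genes outside the gene set, and each name stands for cells that are like that type by these markers. A total of 6794 cells (57.5%) passed exactly 1 of 10 gates, 4297 cells passed none and 715 cells passed several. The groups were 692 alveolar type 2 (AT2) epithelial cells, 96 alveolar type 1 (AT1) epithelial cells, 401 endothelial cells, 903 alveolar macrophages, 254 interstitial macrophages, 141 cells high in Inhba and Saa3, 3102 monocytes, 328 neutrophils, 586 T cells and 291 cells high in Dppa5a. Own-group markers were highest in their group for 6 of 6 genes in AT2, AT1, endothelial, neutrophil and T cells, for 5 of 6 in alveolar macrophages, interstitial macrophages and monocytes, and for 6 of 7 in Dppa5a-high cells. Inhba/Saa3 cells led in only 3 of 5 genes of their inflammatory macrophage list, and the summed level of that list in CPM (UMI counts scaled to a total of 1e6 per group) was 1635 CPM there against 2228 CPM in neutrophils, so these cells are called by their gate genes. Dppa5a-high cells also held transcripts of pluripotency genes, with Pou5f1 at 415 CPM, Nanog at 232 CPM and Sox2 at 278 CPM. The labels name no such cell type, and no type is assigned to them here. Median UMIs per cell ran from 2310 in endothelial cells to 11057 in Dppa5a-high and 12884 in Inhba/Saa3 cells. Sftpc, the surfactant gene that defines AT2 cells, stood at 132559 CPM in AT2 cells. In the other groups its median was 132 CPM and its highest level 1105 CPM. The AT2 gate itself keeps Sftpc-rich cells out of those groups. Sftpb, a surfactant gene not used in a gate, stood at 7790 CPM in AT2 cells. Elsewhere its median was 11.1 CPM and its highest level 140 CPM, so free RNA was low by these 2 genes. Dppa5a UMIs did occur in other groups, in 10 of 96 AT1 cells and 151 of 3102 monocytes.

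Levels are in CPM, from the UMIs summed over the cells of a group. Each UMI stands for 1 molecule captured at its 3′ end, so no division by gene length was made. A fold is the level in a group over the mean level of the other 9 groups. Genes with a mean of at least 5 CPM over the groups were compared (11458 genes), and a gene is called higher at 2-fold or more and lower at a fold of 0.5 or less. Several members, Gapdh, Aldoa, Eno1, Ldha, Pgk1 and Tpi1 among them, have near-identical processed copies in the mouse genome, and how reads shared with those copies were counted is not given in the sources used here.

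Promoters were read for the 33 members that RefSeq (GRCm38.p6) lists, as the 250 bases before each transcript start. The letters searched were the HIF-response cores ACGTG and GCGTG, on both strands, with overlapping matches merged and counted once. A core was present in 38 of 47 member windows (80.9%), and in 38.6% of all 32851 promoter windows of the same length. Some windows of Eno1, Aldoa and Pfkm overlap and share cores. Counted per gene, 29 of 33 members (87.9%) had a core in any window, against 41.5% of all genes. Members include genes chosen as HIF targets. Both cores contain CG, and windows were not matched for base composition. At least 3 cores were present in 17.0% of member windows and in 4.65% of all windows. No core was found in any window of Vhl, Tpi1, Gpi1 or Hif1an. A match is a string of letters and not a measured binding site. The windows printed here belong to 5 members that were highest in neutrophils (Slc16a3, Egln3, Ankrd37) or in Dppa5a-high cells (Ldha, Bnip3), with the cores in capitals, read 5′ to 3′ toward the transcript start. Slc16a3 (chr11:120948817-120949066, plus strand) has 2 cores, Egln3 (chr12:54203875-54204124, minus strand) has 1, Ankrd37 (chr8:45999851-46000100, minus strand) has 3, Bnip3 (chr7:138909507-138909756, minus strand) has 4 and this window of Ldha (chr7:46845554-46845803, plus strand) has 3.
Slc16a3: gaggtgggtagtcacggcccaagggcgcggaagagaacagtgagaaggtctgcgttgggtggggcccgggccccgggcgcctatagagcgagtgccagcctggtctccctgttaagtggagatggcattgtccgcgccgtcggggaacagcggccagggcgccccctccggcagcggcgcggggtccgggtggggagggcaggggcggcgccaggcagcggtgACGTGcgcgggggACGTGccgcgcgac
Egln3: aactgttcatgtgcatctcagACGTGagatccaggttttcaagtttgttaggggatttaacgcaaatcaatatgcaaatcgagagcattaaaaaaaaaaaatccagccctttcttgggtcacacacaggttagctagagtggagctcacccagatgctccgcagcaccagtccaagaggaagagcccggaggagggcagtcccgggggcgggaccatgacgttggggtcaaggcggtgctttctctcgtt
Ankrd37: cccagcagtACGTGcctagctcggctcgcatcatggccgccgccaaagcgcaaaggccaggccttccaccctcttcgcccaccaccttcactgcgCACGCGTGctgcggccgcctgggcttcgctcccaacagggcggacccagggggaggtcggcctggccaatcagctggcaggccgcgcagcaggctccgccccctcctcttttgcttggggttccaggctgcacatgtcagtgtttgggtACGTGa
Bnip3: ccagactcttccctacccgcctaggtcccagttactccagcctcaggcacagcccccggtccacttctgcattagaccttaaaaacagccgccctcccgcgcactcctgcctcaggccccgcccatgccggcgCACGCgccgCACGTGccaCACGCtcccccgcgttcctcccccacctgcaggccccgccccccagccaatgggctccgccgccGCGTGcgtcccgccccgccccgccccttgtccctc
Ldha: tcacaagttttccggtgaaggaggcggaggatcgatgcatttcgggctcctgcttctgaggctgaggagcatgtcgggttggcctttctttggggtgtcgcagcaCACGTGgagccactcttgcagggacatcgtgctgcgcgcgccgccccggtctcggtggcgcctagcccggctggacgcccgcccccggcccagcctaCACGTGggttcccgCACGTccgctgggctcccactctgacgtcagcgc

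Levels of the members differed between the cell groups. Dppa5a-high cells held the highest level of 17 members, mostly glycolytic enzymes and carriers, whereas AT2, AT1 and endothelial cells held the lowest summed levels of the glycolytic enzymes. Endothelial cells were the highest group for Epas1, Egln1, Egln2, Ndrg1 and the hexokinase gene Hk1, AT2 cells for Slc16a1, Pdk1 and P4ha1, and AT1 cells for Arnt and Hif1an. Neutrophils led in 5 members, among them the lactate exporter Slc16a3, the flux regulator Pfkfb3 and the prolyl hydroxylase Egln3. Between the highest and the lowest group, 19 members differed by at least 10-fold (Hk3, with no UMI in its lowest group, against a floor of 3 counts). Only Vhl, Egln1 and Egln2 differed by less than 3-fold. How many of all tested genes span as much, or lead in each group, was not counted. Neither count is therefore shown to be particular to this gene set.

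**Figure D1:**
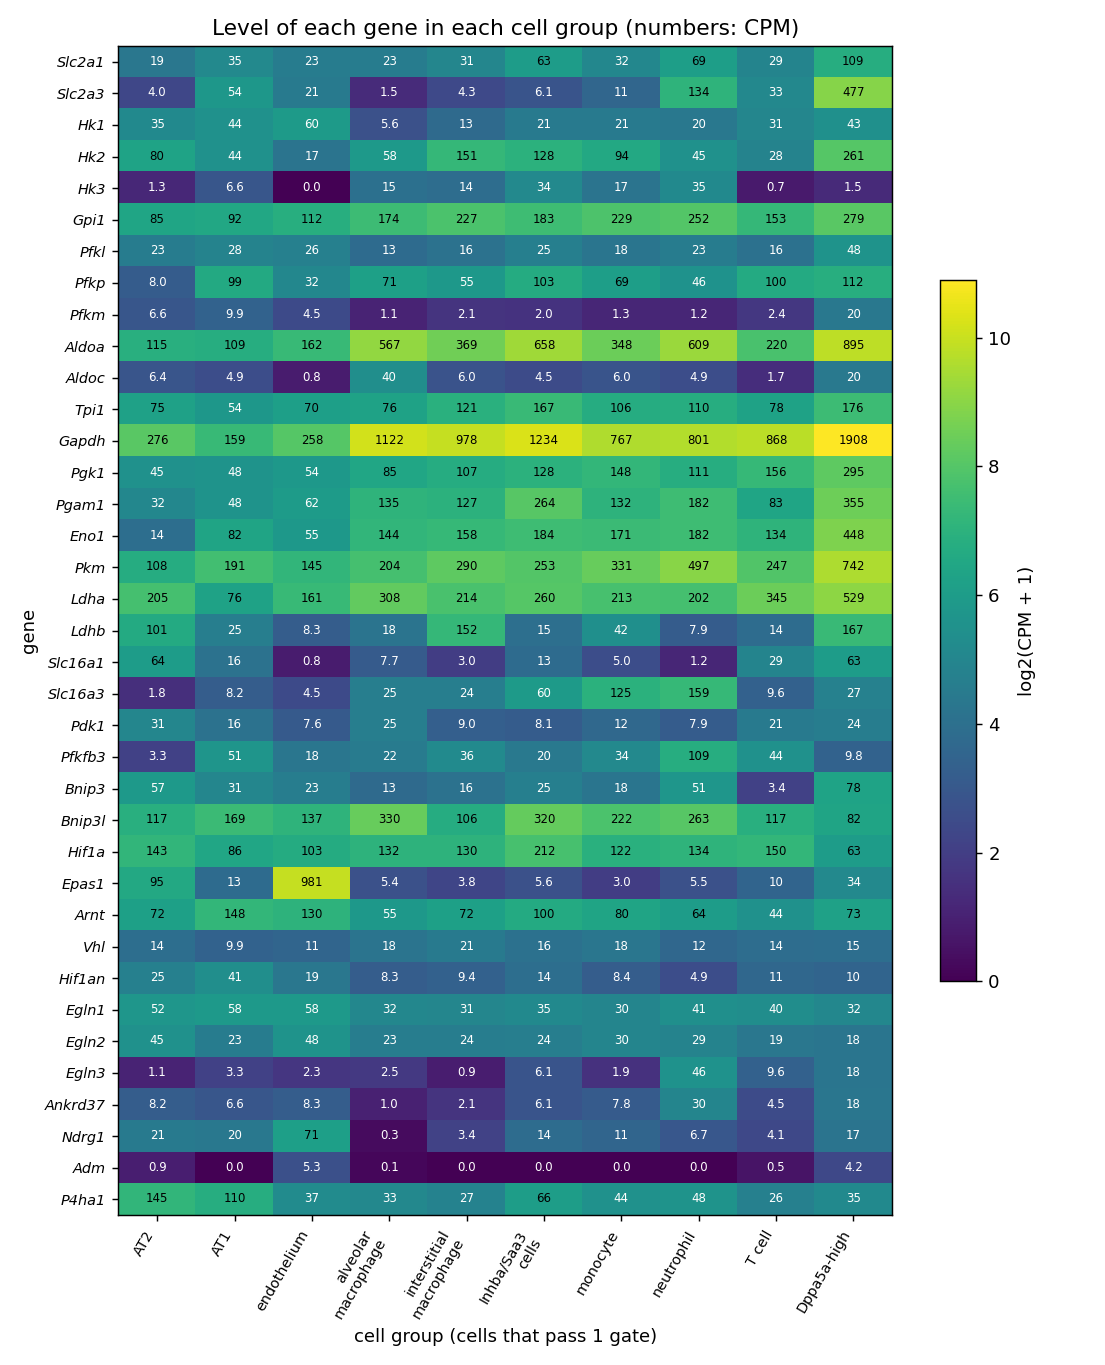
Level of each of the 37 genes (rows) in each of the 10 cell groups (columns), with the CPM printed in each cell and the colour showing log2(CPM + 1). The column of Dppa5a-high cells is brightest for most enzymes, and Epas1 at 981 CPM stands out in endothelial cells.

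In Dppa5a-high cells 18 of 36 members were called higher, against 19.3% of all genes tested, and 5 were called lower, against 33.3% of all genes. The median log2 fold of the members there was 1.01, against -0.26 over all genes. These cells also carried more cell-cycle RNA than most groups, 731 CPM summed over 4 cycling genes. The sum was 974 CPM in T cells, 333 CPM in endothelial cells and 18.9 CPM in neutrophils. Top2a (469 CPM) and Birc5 (159 CPM) were above endothelial cells (134 and 49.9 CPM). Mki67 (74.5 CPM) and Pclaf (28.3 CPM) were below them (94.5 and 55.2 CPM). The part of cycling in the result was not tested. Leaving out single runs gave 15 to 18 members called higher. Slc2a1, Gapdh and Ldha were high in runs 4 and 5 (66 and 49 Dppa5a-high cells) and low in runs 6 and 7 (130 and 33 cells). Leaving out 1 run always kept a high run, so it does not show how far the calls depend on runs 4 and 5.

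AT2, AT1 and endothelial cells, the groups with the lowest summed enzyme levels, differed from each other in their calls. AT2 cells had 4 members called higher (10.2% of all genes) and 14 called lower (29% of all genes). Surfactant transcripts took 15.1% of all AT2 UMIs. When each fold was divided by the median fold over all genes, the AT2 split was 7 higher and 12 lower. The share of all genes called after this division was not counted. AT1 cells had 3 members higher (19.1% of all genes) and 15 lower (25.6% of all genes), and without 4 AT1 cells that held 2 or more Dppa5a UMIs only 1 was higher. Leaving out run 4 likewise left 1 member higher in AT1 cells. Endothelial cells had 3 members higher (16.5% of all genes) and 18 lower (19.6% of all genes). In endothelial cells the share of members called higher was thus below that of all genes, and the share called lower was above it. The AT1 count of lower members depended on the setting: it was 8 when cells of several gates took the first gate they passed, and 9 without Dppa5a-high cells among the comparison groups. The median log2 fold of the members was -0.87 in endothelial cells against 0.07 over all genes, and -0.59 in AT1 cells against 0.01. In AT2 cells it was -0.32 against -0.42 over all genes, so the median member there was not below the median gene.

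Among myeloid cells, alveolar macrophages had 1 member higher (5.86% of all genes) and 10 lower (27.7%), and interstitial macrophages 1 higher (4.15%) and 10 lower (32%). Inhba/Saa3 cells had 2 higher (5.03%) and 6 lower (28.3%), and monocytes 1 higher (6.28%) and 5 lower (29.8%). Neutrophils had 5 higher (8.07%) and 9 lower (42.9%). In T cells no member was called higher (7.96% of all genes) and 12 were lower (31.8%). The shares of members called lower in alveolar and interstitial macrophages and T cells were near those of all genes. In several groups the median fold of all genes was itself below 1, by 0.70 on the log2 scale in neutrophils, where S100a8 and S100a9 took 10.1% of all UMIs. Relative to that median, neutrophils had 13 members higher and 5 lower. Inhba/Saa3 cells then had 6 higher and 4 lower, and interstitial macrophages 3 higher and 6 lower. The percentages of all genes given here are for undivided folds, and those after the division were not counted. Without run 7 only 1 member was higher in Inhba/Saa3 cells, without run 5 there were 2 in alveolar macrophages, and without run 1 only 5 were lower in neutrophils.

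**Figure D2:**
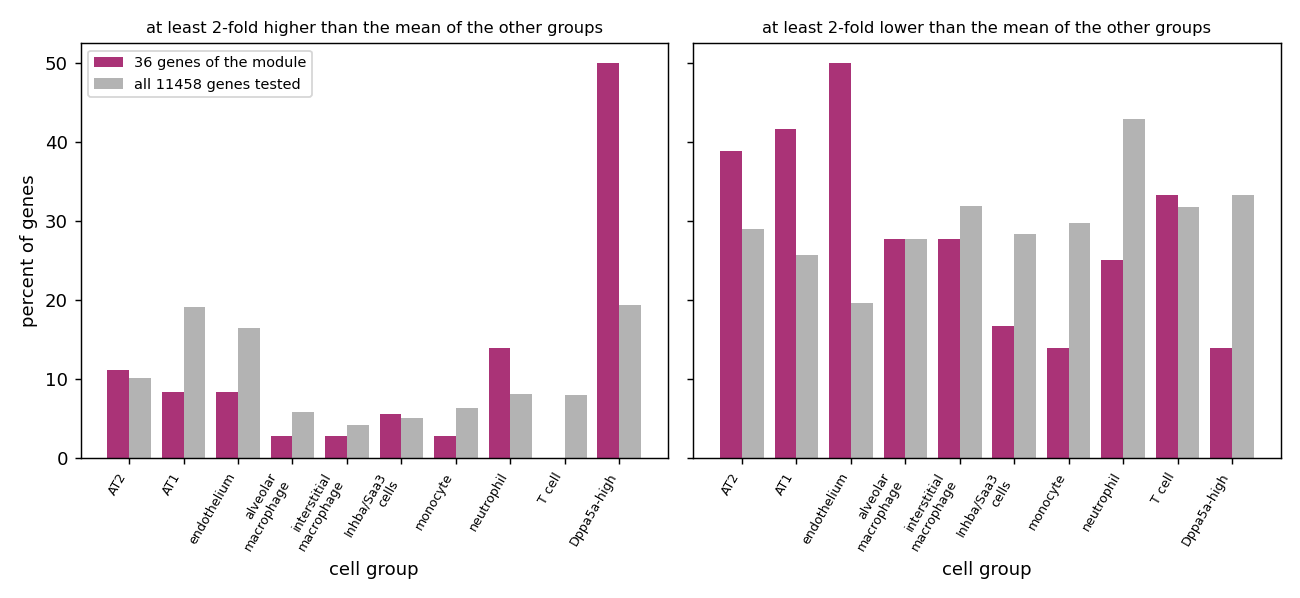
Percent of the 36 tested members and of all 11458 tested genes that were at least 2-fold higher (left) or at most 0.5-fold (right) against the mean of the other groups, for each of the 10 cell groups. The members exceed all genes most clearly on the higher side in Dppa5a-high cells, with 18 of 36 members against 19.3% of all genes.

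Among the carriers that bring glucose into cells are GLUT1, from Slc2a1, and GLUT3, from Slc2a3, a high-affinity form known from neurons and early embryos. Uptake was not measured. The 2 genes differed most in how widely they were expressed. Slc2a1 was lowest in AT2 cells at 18.8 CPM, and stood at 22.7 CPM in endothelial cells, 22.9 CPM in alveolar macrophages, 29.2 CPM in T cells, 30.7 CPM in interstitial macrophages, 32.4 CPM in monocytes, 34.5 CPM in AT1 cells, 63.2 CPM in Inhba/Saa3 cells, 68.9 CPM in neutrophils and 109 CPM (interval 99 to 120) in Dppa5a-high cells. Its fold in Dppa5a-high cells was 3.03 (2.68 to 3.43), and among the 4 runs it was high in runs 4 and 5 (143 and 129 CPM) and low in runs 6 and 7 (50.3 and 37.2 CPM). Slc2a3 was high in fewer groups. Its level was 477 CPM in Dppa5a-high cells, 134 CPM in neutrophils, 54.3 CPM in AT1 cells, 33.0 CPM in T cells, 21.2 CPM in endothelial cells and 11 CPM in monocytes. In the other groups it lay between 1.52 CPM in alveolar macrophages and 6.1 CPM in Inhba/Saa3 cells. The fold in Dppa5a-high cells was 15.9, and 11.4 without run 1. Neutrophils were less even, with 99.6, 67.1 and 465 CPM in their 3 runs. The AT1 level rested on 4 cells that held 2 or more Dppa5a UMIs, since without them it was 7.19 CPM, and the endothelial level was 6.99 CPM without 2 such cells. Of all UMIs of the pair, Slc2a3 made up 81.4% (79.8 to 83.0) in Dppa5a-high cells and 66.1% (60.7 to 71.1) in neutrophils, against 17.5% in AT2 cells and 6.22% in alveolar macrophages.

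The glycolytic enzymes together separated Dppa5a-high cells at the top from alveolar epithelium and endothelium at the bottom. Summed over the 15 enzymes, the level was 5603 CPM (5531 to 5676) in Dppa5a-high cells, and 3388 CPM in Inhba/Saa3 cells, 2918 CPM in neutrophils, 2711 CPM in alveolar macrophages, 2635 CPM in interstitial macrophages, 2459 CPM in monocytes and 2119 CPM in T cells. It was 1059 CPM (1005 to 1116) in endothelial cells, 1019 CPM (941 to 1103) in AT1 cells and 911 CPM (883 to 939) in AT2 cells. Not all neighbours in this order differed beyond counting error: the intervals of alveolar macrophages (2675 to 2748) and interstitial macrophages (2569 to 2701) overlapped, as did those of endothelial and AT1 cells. Runs spread widely within a group, from 3244 to 6736 CPM in Dppa5a-high cells and from 669 to 2255 CPM in endothelial cells. The lowest run of Dppa5a-high cells was still above the highest run of AT2 cells (1110 CPM), AT1 cells (1002 CPM) and endothelial cells (2255 CPM). It was below the highest runs of Inhba/Saa3 cells (4033 CPM), interstitial macrophages (3546 CPM), monocytes (3398 CPM) and neutrophils (3292 CPM). Without the cells holding 2 or more Dppa5a UMIs, the AT1 sum was 799 CPM and the endothelial sum 917 CPM.

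**Figure D3:**
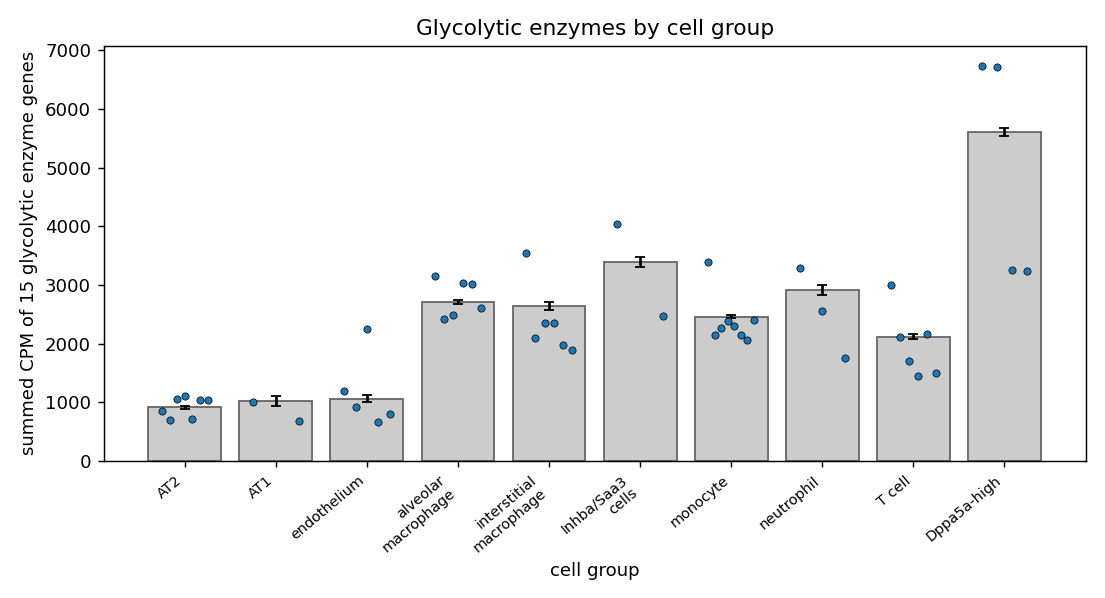
Summed level of the 15 glycolytic enzymes in CPM (bars, with 95% counting intervals) in each of the 10 cell groups, and the same sum in single runs of barcodes (points). Dppa5a-high cells reach 5603 CPM, and AT2, AT1 and endothelial cells lie near 1000 CPM, apart from 1 endothelial run at 2255 CPM.

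Hexokinase traps glucose by phosphorylation, and the 3 isozymes were divided among cell types. Hk2, the inducible form, was at 261 CPM in Dppa5a-high cells, 151 CPM in interstitial macrophages and 128 CPM in Inhba/Saa3 cells. Monocytes held 93.9 CPM, AT2 cells 79.7 CPM, alveolar macrophages 58.0 CPM, neutrophils 45.1 CPM and AT1 cells 44.4 CPM. Levels were lowest in T cells at 28.5 CPM and endothelial cells at 17.4 CPM. The AT1 level of Hk2 was 16.2 CPM, and the endothelial level 7.77 CPM, without the cells holding Dppa5a UMIs. Hk1, the housekeeping form, was instead highest in the group with the least Hk2, with 60.5 CPM (48.0 to 75.3) in endothelial cells, 44.4 CPM in AT1 cells, 42.8 CPM in Dppa5a-high cells, 35.2 CPM in AT2 cells, 30.7 CPM in T cells, 21.0 CPM in monocytes, 20.7 CPM in Inhba/Saa3 cells, 19.5 CPM in neutrophils, 12.8 CPM in interstitial macrophages and 5.56 CPM in alveolar macrophages. The fold of Hk1 in endothelial cells was 2.34 (1.84 to 2.97), and the intervals of endothelial and AT1 cells overlapped. Hk1 made up 77.7% (68.4 to 85.3) of hexokinase UMIs in endothelial cells and 51.2% in T cells, while Hk2 made up 85.5% in Dppa5a-high cells and 84.9% in interstitial macrophages.

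Hk3, a form known from myeloid cells, stayed near or below 7 CPM outside that lineage. It was at 34.8 CPM in neutrophils, 33.9 CPM in Inhba/Saa3 cells, 17.1 CPM in monocytes, 15.2 CPM in alveolar macrophages and 14.1 CPM in interstitial macrophages. The remaining levels were 6.58 CPM in AT1 cells, 1.47 CPM in Dppa5a-high cells, 1.33 CPM in AT2 cells and 0.718 CPM in T cells, and no UMI was found in endothelial cells, which puts their level at least 6.13-fold lower than the mean of the other groups by a floor of 3 counts over the group. The fold was 3.46 in neutrophils and 3.34 in Inhba/Saa3 cells, and the 3 neutrophil runs gave 31.3, 35.1 and 53.2 CPM. The last of these runs held 29 neutrophils, so its value rests on few UMIs. Neutrophils were the group in which Hk3 took its largest share of hexokinase UMIs, 35.0% (27.7 to 42.8), against 19.3% in alveolar macrophages and 18.6% in Inhba/Saa3 cells.

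Phosphofructokinase commits sugar to glycolysis and is built from liver (Pfkl), muscle (Pfkm) and platelet (Pfkp) type subunits. Pfkp was the main form in immune cells, with 100.3 CPM in T cells, 103 CPM in Inhba/Saa3 cells, 71.5 CPM in alveolar macrophages, 68.9 CPM in monocytes, 55.1 CPM in interstitial macrophages and 46.4 CPM in neutrophils. It was at 112 CPM in Dppa5a-high cells, 98.7 CPM in AT1 cells (34.2 CPM without the cells holding Dppa5a UMIs), 31.8 CPM in endothelial cells and 7.97 CPM in AT2 cells. AT2 cells were the exception in their balance, since Pfkl, at 22.6 CPM, made up 60.7% (52.9 to 68.1) of their phosphofructokinase UMIs. Pfkl was highest in Dppa5a-high cells at 47.9 CPM (fold 2.32), and was at 28.0 CPM in AT1 cells, 25.7 CPM in endothelial cells, 24.8 CPM in Inhba/Saa3 cells, 22.6 CPM in neutrophils, 17.8 CPM in monocytes, 16.2 CPM in interstitial macrophages, 15.6 CPM in T cells and 12.9 CPM in alveolar macrophages. Pfkm was at 19.7 CPM in Dppa5a-high cells, with a fold of 5.67 (3.87 to 8.30), against 9.87 CPM in AT1 cells, 6.64 CPM in AT2 cells, 4.54 CPM in endothelial cells and 1.14 to 2.39 CPM in the immune groups. The AT1 value of Pfkm was called higher, at a fold of 2.17 on 6 UMIs (0.955 to 4.91), and was 1.04 without run 1.

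At most of the middle steps Dppa5a-high cells were highest and alveolar epithelium lowest. Gpi1, which isomerises the phosphorylated glucose, ran from 85.1 CPM in AT2 cells to 279 CPM in Dppa5a-high cells and was below the 2-fold line there. Tpi1, the triose phosphate isomerase, ran from 54.3 CPM in AT1 cells to 176 CPM in Dppa5a-high cells, also below the line. Aldoa, the main aldolase, was at 895 CPM in Dppa5a-high cells (fold 2.55), 658 CPM in Inhba/Saa3 cells, 609 CPM in neutrophils, 567 CPM in alveolar macrophages, 369 CPM in interstitial macrophages, 348 CPM in monocytes, 220 CPM in T cells, 162 CPM in endothelial cells, 115 CPM in AT2 cells and 109 CPM in AT1 cells. Gapdh, the dehydrogenase that reduces NAD, was at 1908 CPM (1866 to 1951) in Dppa5a-high cells, 1234 CPM in Inhba/Saa3 cells, 1122 CPM in alveolar macrophages, 978 CPM in interstitial macrophages, 868 CPM in T cells, 801 CPM in neutrophils, 767 CPM in monocytes, 276 CPM in AT2 cells, 258 CPM in endothelial cells and 159 CPM (129 to 195) in AT1 cells. A gene often used as a constant reference thus differed 12.0-fold between the ends of this order. Within Dppa5a-high cells the 4 runs gave 2220, 2208, 1209 and 1117 CPM of Gapdh, with runs 4 and 5 high and runs 6 and 7 low.

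From phosphoglycerate to pyruvate every step was called higher in Dppa5a-high cells. The phosphoglycerate kinase Pgk1 stood at 295 CPM there (fold 3.00), the mutase Pgam1 at 355 CPM (fold 3.00), the enolase Eno1 at 448 CPM (fold 3.59) and the pyruvate kinase gene Pkm at 742 CPM (fold 2.95). The lowest levels of all 4 genes were in AT2 cells, at 45.2 CPM for Pgk1, 32.1 CPM for Pgam1, 14.4 CPM for Eno1 and 108 CPM for Pkm. Eno1 spanned the widest range of these, 31.1-fold, with 55.2 CPM in endothelial cells, 82.2 CPM in AT1 cells, 134 CPM in T cells, 144 CPM in alveolar macrophages, 158 CPM in interstitial macrophages, 171 CPM in monocytes, 182 CPM in neutrophils and 184 CPM in Inhba/Saa3 cells. Pkm was second highest in neutrophils at 497 CPM. Pgam1 was second highest in Inhba/Saa3 cells at 264 CPM, a fold of 2.06 that was 1.63 without run 1 and also below 2 without run 7. Its remaining levels were 182 CPM in neutrophils, 135 CPM in alveolar macrophages, 132 CPM in monocytes, 127 CPM in interstitial macrophages, 83.3 CPM in T cells, 62.0 CPM in endothelial cells and 47.7 CPM in AT1 cells.

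Aldoc, the aldolase best known from brain, broke with the other enzymes by leading in alveolar macrophages. Its level there was 40.4 CPM (36.1 to 45.1) and its fold 6.57 (5.36 to 8.06), with 29.0 to 55.8 CPM in the 6 runs. Dppa5a-high cells followed at 20.2 CPM, a fold of 2.40 that was 1.99 without run 4. All other groups were at or below 6.42 CPM, down to 1 UMI in endothelial cells (0.756 CPM). No run of alveolar macrophages came as low as any of those pooled levels. Even so, Aldoc made up only 6.66% of the aldolase UMIs in alveolar macrophages, the rest being Aldoa.

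Lactate dehydrogenase is a tetramer of A subunits, which favour lactate formation in textbook accounts, and B subunits, which favour its use. Ldha was at 529 CPM in Dppa5a-high cells, 345 CPM in T cells, 308 CPM in alveolar macrophages, 260 CPM in Inhba/Saa3 cells, 214 CPM in interstitial macrophages, 213 CPM in monocytes, 205 CPM in AT2 cells, 202 CPM in neutrophils, 161 CPM in endothelial cells (108 CPM without the cells holding Dppa5a UMIs) and 75.6 CPM in AT1 cells. Its fold in Dppa5a-high cells was 2.40, with 731, 606, 262 and 172 CPM in runs 4 to 7. Ldhb was high in fewer groups, at 167 CPM in Dppa5a-high cells (fold 3.94), 152 CPM (136 to 168) in interstitial macrophages (fold 3.45), 101 CPM in AT2 cells (fold 2.03) and 41.8 CPM in monocytes. The other groups held 24.7 CPM (AT1), 17.6 CPM (alveolar macrophages), 14.7 CPM (Inhba/Saa3 cells), 13.6 CPM (T cells), 8.32 CPM (endothelial cells) and 7.93 CPM (neutrophils). Runs of interstitial macrophages gave 83.4 to 206 CPM, all above the pooled level of alveolar macrophages. The share of Ldhb among the UMIs of the pair was 41.4% (38.1 to 44.8) in interstitial macrophages and 33.0% in AT2 cells, against 3.77% in neutrophils and 3.81% in T cells. The AT2 call lies at the threshold and was lost when run 2, 4 or 7 was left out.

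**Figure D4:**
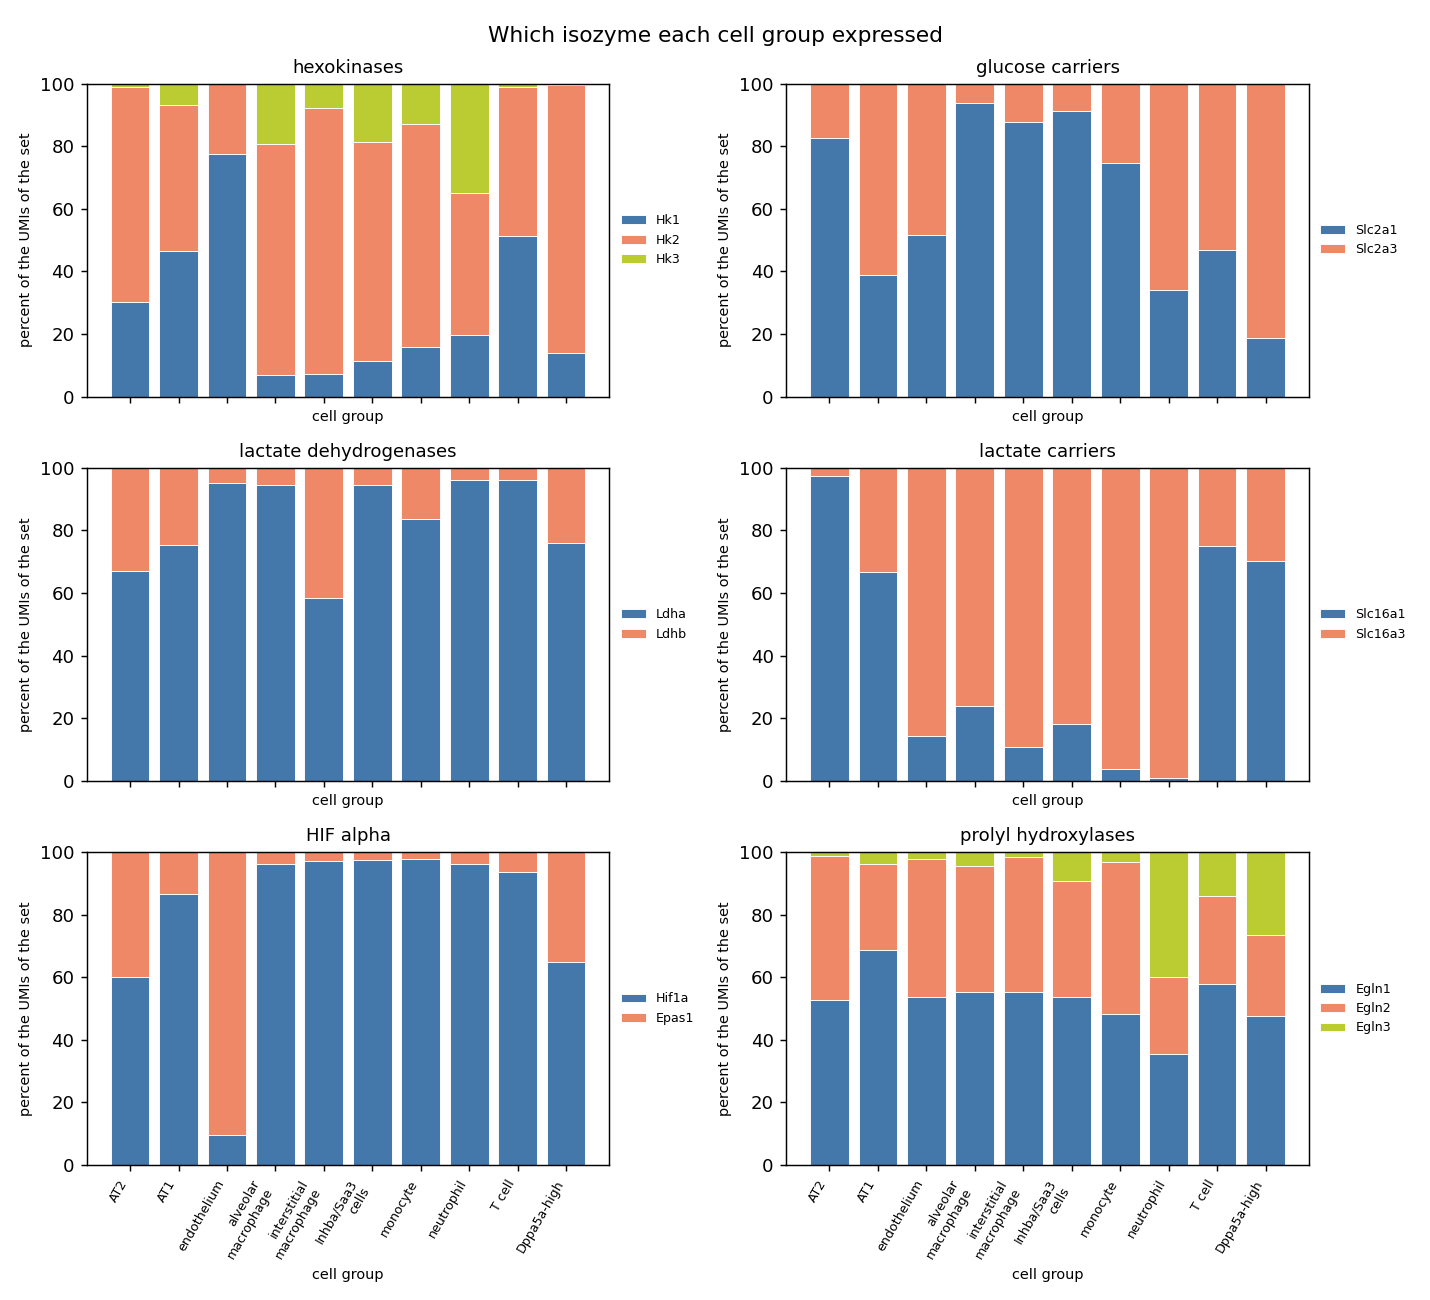
Share in percent of each gene among the UMIs of its set, for 6 sets (panels) in the 10 cell groups (bars). Hk1 dominates in endothelial cells at 77.7%, Slc16a1 in AT2 cells at 97.3%, Slc16a3 in neutrophils at 99.2% and Epas1 in endothelial cells at 90.5%.

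The balance of the 2 lactate carriers set the myeloid groups apart from AT2, T and Dppa5a-high cells. AT1 and endothelial cells held too few UMIs of the pair (15 and 7) to be placed. Slc16a1 encodes MCT1, which carries lactate in either direction, and Slc16a3 encodes MCT4, known for export from highly glycolytic cells. Slc16a1 was at 63.6 CPM in AT2 cells (fold 4.10, 3.50 to 4.80; runs 51 to 120 CPM), 63.4 CPM in Dppa5a-high cells (fold 4.08), 29.0 CPM in T cells, 16.4 CPM in AT1 cells and 13.1 CPM in Inhba/Saa3 cells. It was at 7.71 CPM in alveolar macrophages, 4.98 CPM in monocytes, 2.99 CPM in interstitial macrophages, 1.22 CPM (2 UMIs) in neutrophils and 0.756 CPM (1 UMI) in endothelial cells. With endothelial cells low for both genes, Slc16a3 reversed the order of AT2 cells against neutrophils and monocytes. It was at 159 CPM (140 to 179) in neutrophils and 125 CPM (120 to 131) in monocytes, then 59.6 CPM in Inhba/Saa3 cells, 27.0 CPM in Dppa5a-high cells, 24.6 CPM in alveolar macrophages, 24.3 CPM in interstitial macrophages, 9.58 CPM in T cells, 8.22 CPM in AT1 cells, 4.54 CPM in endothelial cells and 1.77 CPM in AT2 cells. The folds of Slc16a3 were 5.01 (4.37 to 5.73) in neutrophils and 3.54 (3.24 to 3.87) in monocytes, and the 8 monocyte runs gave 82.5 to 165 CPM. Slc16a1 made up 97.3% (94.7 to 98.8) of the pair in AT2 cells, 75.2% in T cells and 70.1% in Dppa5a-high cells, while Slc16a3 made up 99.2% (97.3 to 99.9) in neutrophils and 96.2% in monocytes.

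The 2 flux regulators pointed to different cells. Pfkfb3 makes the sugar bisphosphate that activates phosphofructokinase, and it stood at 109 CPM (93.2 to 126) in neutrophils, a fold of 4.09 (3.43 to 4.88) with 106, 79.8 and 213 CPM in the 3 runs. It was at 51.0 CPM in AT1 cells, 44.1 CPM in T cells, 36.3 CPM in interstitial macrophages, 34.2 CPM in monocytes, 22.0 CPM in alveolar macrophages, 20.2 CPM in Inhba/Saa3 cells, 18.1 CPM in endothelial cells, 9.83 CPM in Dppa5a-high cells and 3.32 CPM in AT2 cells. Dppa5a-high cells, with the most enzyme RNA, were thus among the lowest for Pfkfb3. Pdk1 encodes a kinase that closes the pyruvate dehydrogenase gate into mitochondria, and it was highest in AT2 cells at 30.8 CPM (fold 2.12), followed by 24.6 CPM in alveolar macrophages, 23.8 CPM in Dppa5a-high cells and 21.1 CPM in T cells. The AT2 fold of Pdk1 was 1.91 without run 6 and 1.81 when cells of several gates took the first gate they passed.

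Of the alpha subunits of HIF, Epas1 prevailed in endothelial cells and Hif1a in the other pooled groups, less strongly in AT2 and Dppa5a-high cells. Epas1, which encodes HIF-2 alpha and is known from vascular and epithelial cells, was at 981 CPM (928 to 1035) in endothelial cells, with 765 to 1130 CPM in the 5 runs. It was at 94.8 CPM in AT2 cells, 34.4 CPM in Dppa5a-high cells, 13.2 CPM in AT1 cells and 10.3 CPM in T cells, and the 5 groups of macrophages, monocytes, neutrophils and Inhba/Saa3 cells held 2.96 to 5.56 CPM. The endothelial fold was 50.2 (45.2 to 55.6), and the lowest endothelial run was far above the pooled level of every other group. Hif1a was broad instead. It was at 212 CPM (192 to 233) in Inhba/Saa3 cells, with 170 and 325 CPM in 2 runs, then 150 CPM in T cells, 143 CPM in AT2 cells, 134 CPM in neutrophils, 132 CPM in alveolar macrophages, 130 CPM in interstitial macrophages, 122 CPM in monocytes, 103 CPM in endothelial cells, 85.5 CPM in AT1 cells and 63.2 CPM (55.7 to 71.4) in Dppa5a-high cells. The intervals of the 6 groups from T cells to monocytes overlapped with those of their neighbours. Hif1a was called lower only in Dppa5a-high cells (fold 0.470), the group with the highest level of most enzymes, and called higher in none. Divided by the median fold of all genes, the fold in Dppa5a-high cells was 0.561, above the line of 0.5. Epas1 made up 90.5% (88.9 to 92.0) of alpha-subunit UMIs in endothelial cells, 39.9% in AT2 cells, 35.3% in Dppa5a-high cells and 2.37% in monocytes. Arnt, the shared partner, ranged only from 44.3 CPM in T cells to 148 CPM (119 to 182) in AT1 cells and 130 CPM (111 to 151) in endothelial cells, and was called in no group.

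Among the genes that restrain HIF, 3 were nearly flat. Vhl, the substrate adaptor of the ligase, ran from 9.87 to 21.4 CPM over the groups. Egln1, the main prolyl hydroxylase in textbook accounts, was at 58.2 CPM in endothelial cells, 57.6 CPM in AT1 cells, 51.8 CPM in AT2 cells, 41.5 CPM in neutrophils, 39.5 CPM in T cells and 29.9 to 35.4 CPM in the other groups. Egln2 was at 47.6 CPM in endothelial cells, 45.2 CPM in AT2 cells, 30.2 CPM in monocytes, 28.7 CPM in neutrophils and 17.7 to 24.3 CPM in the other groups. For both genes the top place of endothelial cells was not separated by its interval from AT2 cells. Hif1an encodes the asparaginyl hydroxylase that blocks coactivator binding, and it was highest in AT1 cells at 41.1 CPM (26.6 to 60.7), with a fold of 3.32 (2.21 to 5.00), and 2.22 without run 1. Its other levels ran from 4.88 CPM in neutrophils to 25.5 CPM in AT2 cells. Leaving out the AT1 cells with Dppa5a UMIs left the Hif1an fold at 3.36.

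Egln3, a prolyl hydroxylase that is itself a HIF target, departed from its 2 relatives. Its level was 46.4 CPM (36.5 to 58.0) in neutrophils, with 46.5, 63.9 and 26.6 CPM in the 3 runs. The lowest value came from a run of only 29 neutrophils and rests on few UMIs. It was above the pooled level of every other group, but counting error there is wide. Dppa5a-high cells followed at 17.9 CPM (fold 2.18, and 1.94 without run 5) and T cells at 9.58 CPM. The other groups were at 6.06 CPM in Inhba/Saa3 cells, 3.29 CPM in AT1 cells, 2.53 CPM in alveolar macrophages, 2.27 CPM in endothelial cells, 1.92 CPM in monocytes, 1.11 CPM in AT2 cells and 0.854 CPM in interstitial macrophages. The neutrophil fold was 9.16 (6.86 to 12.2). Egln3 made up 39.8% (32.8 to 47.1) of prolyl hydroxylase UMIs in neutrophils, 26.4% in Dppa5a-high cells and 14.0% in T cells.

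**Figure D5:**
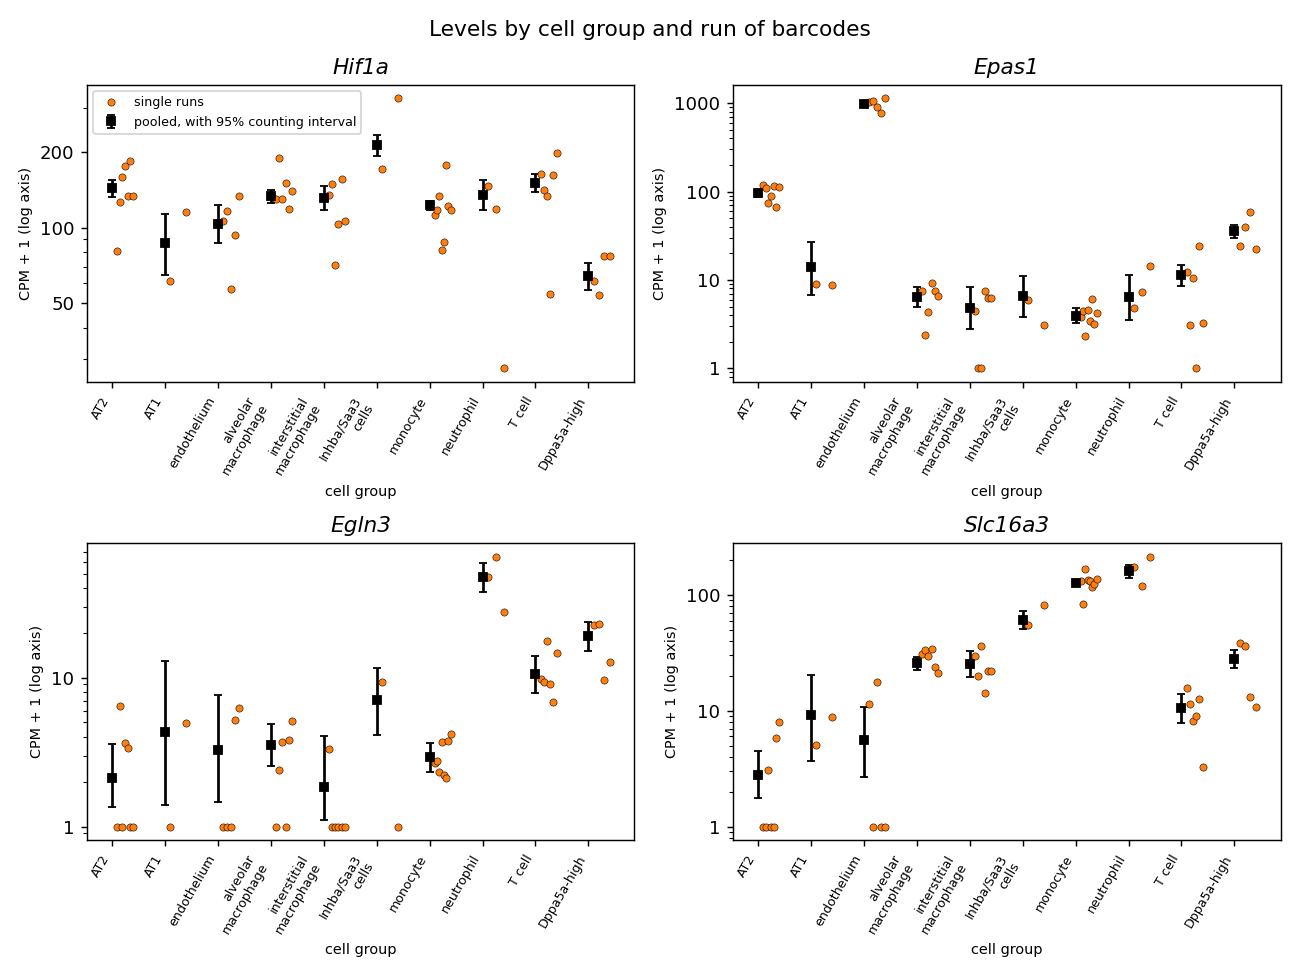
Levels as CPM + 1 on a log axis for Hif1a, Epas1, Egln3 and Slc16a3 in the 10 cell groups, pooled (squares, with 95% counting intervals) and in single runs of barcodes with at least 20 cells (points). Endothelial runs of Epas1 lie at 765 to 1130 CPM, and neutrophil runs of Egln3 at 26.6 to 63.9 CPM. The lowest of these Egln3 values rests on few UMIs from 29 neutrophils.

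HIF target genes outside glycolysis did not share a common leading group. Ankrd37, an ankyrin-repeat gene induced by HIF, was highest in neutrophils at 30.5 CPM (22.6 to 40.2), a fold of 4.35 (3.15 to 6.02). It was at 31.3 and 47.9 CPM in 2 neutrophil runs. No UMI was found in the third run, which held only 29 neutrophils. Ankrd37 was at 18.4 CPM in Dppa5a-high cells (fold 2.21, and 1.74 without run 4). Levels were 8.32 CPM in endothelial cells, 8.20 CPM in AT2 cells, 7.78 CPM in monocytes and 1.01 to 6.58 CPM elsewhere. The promoter window of Ankrd37 holds 3 cores. A window of Egln2, which was nearly flat over the groups, holds 4, and a link between cores and levels was not tested. Bnip3, a receptor for the removal of mitochondria whose window holds 4 cores, was highest in Dppa5a-high cells at 77.9 CPM (fold 2.94). It was at 57.4 CPM in AT2 cells (fold 1.99, just short of the threshold), 51.2 CPM in neutrophils, 31.2 CPM in AT1 cells, 25.3 CPM in Inhba/Saa3 cells, 23.4 CPM in endothelial cells (6.99 CPM without the cells holding Dppa5a UMIs), 17.8 CPM in monocytes, 16.2 CPM in interstitial macrophages, 12.6 CPM in alveolar macrophages and 3.35 CPM in T cells. Its relative Bnip3l showed another order, with 330 CPM in alveolar macrophages, 320 CPM in Inhba/Saa3 cells, 263 CPM in neutrophils and 222 CPM in monocytes at the top, 106 to 169 CPM in epithelial, endothelial and T cells and interstitial macrophages, and 82.1 CPM in Dppa5a-high cells at the bottom (fold 0.414). Bnip3 made up 48.7% of the pair in Dppa5a-high cells, 33.0% in AT2 cells and 2.78% in T cells.

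Ndrg1 and P4ha1 led in structural cells. Ndrg1, a stress-response gene, was at 71.1 CPM (57.4 to 87.0) in endothelial cells, a fold of 6.59 (5.12 to 8.48), with 133 CPM in 1 run and 27.2 to 57.3 CPM in the other 4 runs. It was at 21.3 CPM in AT2 cells, 19.7 CPM in AT1 cells, 17.2 CPM in Dppa5a-high cells, 13.6 CPM in Inhba/Saa3 cells, 10.7 CPM in monocytes, 6.71 CPM in neutrophils, 4.07 CPM in T cells, 3.42 CPM in interstitial macrophages and 0.253 CPM (2 UMIs) in alveolar macrophages. P4ha1 encodes the catalytic subunit of the enzyme that hydroxylates proline in collagen, and was highest in alveolar epithelium. It was at 145 CPM (134 to 157) in AT2 cells, a fold of 3.07 (2.74 to 3.43) with runs at 115 to 164 CPM, and at 110 CPM in AT1 cells, where the fold of 2.15 was 1.74 without the cells holding Dppa5a UMIs and 1.73 without run 4. The other groups held 26.1 to 65.7 CPM. Adm was not compared, and its 31 UMIs in gated cells were 17 in Dppa5a-high cells, 7 in endothelial cells, 4 in AT2 cells, 2 in T cells and 1 in alveolar macrophages.

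Monocytes could be divided further, since their gate had a classical arm (Ly6c2 and F13a1, 777 cells) and a nonclassical arm (Ace and Adgre4, 1996 cells), leaving out 329 cells that passed both. Of 33 members tested, 2 were at least 2-fold higher in the nonclassical arm (5.92% of all 9203 genes tested). A further 1 was at least 2-fold lower (4.31% of all genes). Both counts were near the shares of all genes. The lactate exporter Slc16a3 was at 170 CPM in the nonclassical and 64.8 CPM in the classical arm, a ratio of 2.62 (2.33 to 2.95), and was higher in the nonclassical arm in 7 of 7 runs. Aldoc was at 9.67 against 2.45 CPM, a ratio of 3.94 (2.21 to 7.03), also in 7 of 7 runs. The reverse held for Ndrg1, at 17.6 CPM in the classical and 5.97 CPM in the nonclassical arm, 2.94-fold (2.12 to 4.09) and in 7 of 7 runs. Smaller differences in 7 of 7 runs had Gapdh 1.54-fold (1.49 to 1.60), Pkm 1.36-fold (1.28 to 1.44) and Hk2 1.15-fold (1.04 to 1.28) higher in the classical arm. In the nonclassical arm Pdk1 was 1.80-fold (1.28 to 2.55) and Bnip3l 1.35-fold (1.25 to 1.46) higher, also in 7 of 7 runs. Slc16a3 and Gapdh thus lay on opposite sides of this comparison. Genes outside the set, such as Elob and Mxi1, also differed in 7 of 7 runs. The share of all genes that did so was not counted.

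Other genes of the same pathways were read from lists of names. Of 9 other glycolysis genes tested, AT2 cells had 4 higher (10.2% of all genes) and 5 lower (29%), and neutrophils 3 higher (8.07%) and 4 lower (42.9%). Eno3, the muscle-type enolase, was at 134 CPM in monocytes, a fold of 33.0 (26.1 to 41.9) with 105 to 227 CPM in the runs, and it was 51.2-fold higher in the nonclassical than in the classical arm (232 against 4.53 CPM). Pfkfb2, a relative of Pfkfb3, was at 84.2 CPM in AT2 cells (fold 8.69), where Pfkfb3 had its lowest level. Adpgk, a hexokinase-like enzyme that uses ADP, was at 115 CPM in neutrophils (fold 6.63), though its neutrophil runs spread from 16.0 to 439 CPM. Tigar, which lowers glycolytic flux, was at 50.9 CPM in Dppa5a-high cells (fold 5.66).

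Of 19 other HIF targets tested, Dppa5a-high cells had 5 higher (19.3% of all genes) and 9 lower (33.3%), and neutrophils 4 higher (8.07%) and 6 lower (42.9%). AT1 cells had 4 higher (19.1%) and 8 lower (25.6%), and endothelial cells 3 higher (16.5%) and 4 lower (19.6%). The vascular growth factor gene Vegfa was at 1583 CPM in AT1 cells, a fold of 30.0. Ak4, a mitochondrial adenylate kinase, was at 78.6 CPM in Dppa5a-high cells (fold 15.7), and Angptl4, a lipase inhibitor, at 113 CPM in alveolar macrophages (fold 12.2). The leading group thus differed from target to target here too. Of 8 other genes of the HIF machinery tested, 3 were higher in Dppa5a-high cells (Elob, Eloc and P4htm; 19.3% of all genes) and none lower (33.3%).

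Routes that branch from glycolysis had their own order. Of the 7 pentose phosphate genes, 4 were higher in alveolar macrophages (G6pdx, Pgd, Rpia and Taldo1; 5.86% of all genes), 6 were lower in AT1 cells (25.6%) and 5 were lower in endothelial cells (19.6%). Their summed level was 1787 CPM in alveolar macrophages, 1555 CPM in monocytes and 280 CPM in AT1 cells. Of 25 genes of pyruvate entry and the citric acid cycle tested, 10 were lower in neutrophils, where 42.9% of all genes were, and none was higher (8.07% of all genes). Pcx, the pyruvate carboxylase gene, was at 28.6 CPM in AT2 cells (fold 12.5, 8.11 to 19.3). Set against mitochondrially encoded transcripts, the 15 glycolytic enzymes gave 23.3 UMIs per 100 mitochondrial UMIs in neutrophils, 19.2 in Dppa5a-high cells, 12.3 in monocytes and in Inhba/Saa3 cells, 10.3 in interstitial macrophages, 8.93 in alveolar macrophages, 7.69 in T cells, 3.58 in endothelial cells, 3.40 in AT1 cells and 2.73 in AT2 cells. On this scale neutrophils stood above Dppa5a-high cells. Neutrophils held the lowest mitochondrially encoded level, 12506 CPM, and AT2 cells the highest, 33432 CPM. Cells with 10% or more mitochondrial UMIs are not in the table, where the highest share in a cell is 9.99%.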

How the data were processed

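Single-cell RNA-seq libraries (10x Genomics, 3′ chemistry) were processed with Cell Ranger 1.3.1 on mm10, per the submitters' processing notes. The deposited file holds raw UMI counts of 32285 genes in 11806 cells, each with 1055 to 39865 UMIs (median 4425), at least 800 genes and under 10% mitochondrial UMIs. No normalization was applied to the deposited counts. Here cells were gated on fixed UMI counts of marker genes. Counts were summed over the cells that passed 1 gate, and expressed as CPM, with exact Poisson intervals for levels and exact Clopper-Pearson intervals for shares. Cells of 1 sample are not replicates, so no model was fitted. Doublets were kept; leaving out the 193 cells with the highest Scrublet scores was an alternative, since the automatic threshold marked only 56 cells (0.474%). The 37 members, gates and gene lists were chosen with earlier results of these data known. Named genes are all members, with values in every group for those at least 4-fold apart from the others or in an isozyme set, and of each other list at most the 4 genes with the largest fold of at least 4. In that choice only genes past the filter on low values were counted. One gene so chosen is not reported here. The calculation was tested on simulated counts. Python 3.11.15, numpy 2.4.6, scipy 1.17.1, pandas 2.3.3, scanpy 1.11.5 and matplotlib 3.10.9 were used.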

Additional observations from a re-analysis of the deposited data

How the results depend on the processing

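No paired analysis was possible because no cell could be tied to a library, and for the same reason hyperoxia was not compared with air. All values rest on pooled cells of unknown pups, so differences between groups have no replicate check, and low levels rest on few UMIs. Of 142 calls of a member in a group, 92 held in every setting and 50 were lost in at least one. Counted per call and setting, 72 calls were lost and 1064 kept over the single runs left out, and 112 lost and 1165 kept over the other alternatives; calls gained are not in this tally. Of the called folds 1 reversed: Slc2a3 in T cells was 1.12 when Dppa5a-high cells were left out of the comparison groups, against 0.417. Of 210 isozyme shares, 175 stayed within their interval when cells of several gates took the first gate they passed. With that assignment AT2 cells had 2 members higher, AT1 cells 8 lower, T cells 7 lower and the AT1 enzyme fold was 0.588. With doubled gate thresholds alveolar macrophages had 2 higher. With means of per-cell CPM, AT2 cells had 7 higher, AT1 cells 1, interstitial macrophages 2 and Inhba/Saa3 cells 4. Against all other gated cells together, AT2 cells had 7 higher and Inhba/Saa3 cells 1. The other settings were chosen after seeing the data. Without Dppa5a-high cells among the comparison groups, interstitial macrophages had 2 higher, neutrophils 9 and T cells 1, and AT1 cells 9 lower. With folds divided by the median of all genes, AT2 cells had 7 higher, alveolar macrophages 2, interstitial macrophages 3 (and 6 lower), Inhba/Saa3 cells 6 and neutrophils 13 (and 5 lower). Without cells of 2 or more Dppa5a UMIs in other gates, AT1 cells had 1 higher. Shares of all genes were not counted for the alternative settings. Leaving out single runs gave 1 to 4 members higher in AT1 cells, 1 to 2 in alveolar macrophages, 1 to 2 in Inhba/Saa3 cells, 5 to 6 in neutrophils, and 5 to 9 lower in neutrophils. The counts for the other groups moved by less than 1.5 times, and enzyme folds stayed at 0.316 to 0.395 in AT2 cells, 0.318 to 0.450 in AT1 cells, 0.338 to 0.441 in endothelial cells and 2.41 to 3.09 in Dppa5a-high cells.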
